A study of Mus musculus with 2 samples.

Results

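Genes for the enzymes and the chaperone that modify, fold and cross-link collagen were followed in 2 droplet single-cell RNA libraries of mouse tissue. The list holds 5 lysyl oxidases (Lox, Loxl1, Loxl2, Loxl3 and Loxl4), 2 lysyl hydroxylases (Plod1 and Plod2), 2 prolyl 4-hydroxylase alpha subunits (P4ha1 and P4ha2) and the collagen chaperone Serpinh1. These 10 genes were listed by name, with no measured value in the rule but with earlier results of these data known, and make up 10 of the 32285 genes in each matrix. All 10 were detected in both libraries. The study compared tissue from an injured site with its uninjured counterpart in mice that can overexpress Vegfd, a growth factor for lymphatic vessels.

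One library was made from the injured side at day 7 after a burn with cutting of the Achilles tendon, and the other from the contralateral, uninjured side. Both libraries carried 3 engineered alleles: CreERT2 at Hoxa11 (Hoxa11 wt/CreERT2), a stop-blocked rtTA at R26 (R26 wt/LSL-rtTA), and TetO-Vegfd. Inducible Cre from the Hoxa11 locus, a positional gene of the limb, can thus switch on rtTA, which can in turn drive the Vegfd transgene. Both were labelled as burn and tenotomy, so the uninjured cells are not from untreated mice. The mice were male and female, 8 to 12 weeks old at injury. The series design names 5 mice per group, and the labels do not say whether a library pooled several mice. After filtering, 3558 injured and 2394 uninjured cells held the female-linked Xist and no Y-linked UMI, and 3485 and 1520 held the reverse. Each library thus held cells of both male and female mice. The tissue was the soft tissue behind the tibia between the ends of the Achilles tendon. With 1 library per group there is no test of injury, no p-value is given, and every interval below is an exact 95% interval that covers counting error only.

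Collagen chains are modified in the endoplasmic reticulum before they leave the cell. Prolyl 4-hydroxylases hydroxylate proline, which keeps the triple helix stable at body temperature, lysyl hydroxylases hydroxylate lysine, and Serpinh1 (also called HSP47) binds the folded triple helix until export. Outside the cell, lysyl oxidases, copper-dependent enzymes, oxidise lysine and hydroxylysine so that neighbouring molecules form covalent cross-links, which give tendon and scar their strength.

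After filtering, 9151 of 10691 injured and 4700 of 6850 uninjured barcodes were kept, with medians of 17492 and 15771.5 UMIs (unique molecular identifiers, 1 per captured RNA molecule) per cell. Before filtering, 7.49% of injured and 26.4% of uninjured barcodes had more than 10% mitochondrial UMIs, and 19 barcode sequences occurred in both libraries. Cells were grouped into 30 clusters without use of the members, and clusters were named from marker lists. Tendon markers were present but lower in the injured library: among mesenchymal cells, Tnmd stood at 243.7 against 725.9 and Fmod at 218.6 against 937.6 UMIs per 1000000 UMIs of the class (CPM). Vegfd, transgene and endogenous gene together, stood at 95.2 CPM over all injured and 23.5 CPM over all uninjured cells, so the 2 libraries also differed in Vegfd, and its part in any result was not tested.

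The prolyl 4-hydroxylases P4ha1 and P4ha2 are paralogues whose UMIs were spread differently over cell types, and Serpinh1 was the member with the most UMIs, so these 3 promoters are shown first. RefSeq promoter windows (build GRCm38.p6, 250 bases before to 50 bases after the start) were matched for 5 of the 10 members: Loxl4, Plod1, P4ha1, P4ha2 and Serpinh1. Capitals mark ACGTG and GCGTG, the core letters of the hypoxia response element, on either strand (on the opposite strand they read CACGT and CACGC). P4ha1 lies on the plus strand at chr10:59323046-59323345, P4ha2 on the plus strand at chr11:54100674-54100973, and Serpinh1 on the minus strand at chr7:99353190-99353489. The P4ha2 window lies wholly downstream of the gene start at 54100095 in the gene coordinates given below, so it surrounds another start.
P4ha1: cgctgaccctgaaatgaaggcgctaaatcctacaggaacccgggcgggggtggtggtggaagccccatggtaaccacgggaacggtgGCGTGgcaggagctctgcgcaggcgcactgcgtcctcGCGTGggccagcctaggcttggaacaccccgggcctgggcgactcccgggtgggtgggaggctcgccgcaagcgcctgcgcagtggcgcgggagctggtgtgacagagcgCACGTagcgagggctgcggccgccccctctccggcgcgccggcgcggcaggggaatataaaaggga
P4ha2: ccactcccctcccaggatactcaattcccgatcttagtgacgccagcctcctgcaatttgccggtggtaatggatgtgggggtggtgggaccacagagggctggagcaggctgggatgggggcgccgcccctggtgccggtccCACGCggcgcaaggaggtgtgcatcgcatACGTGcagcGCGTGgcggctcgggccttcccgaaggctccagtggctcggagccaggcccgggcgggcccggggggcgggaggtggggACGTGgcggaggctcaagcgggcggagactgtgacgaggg
Serpinh1: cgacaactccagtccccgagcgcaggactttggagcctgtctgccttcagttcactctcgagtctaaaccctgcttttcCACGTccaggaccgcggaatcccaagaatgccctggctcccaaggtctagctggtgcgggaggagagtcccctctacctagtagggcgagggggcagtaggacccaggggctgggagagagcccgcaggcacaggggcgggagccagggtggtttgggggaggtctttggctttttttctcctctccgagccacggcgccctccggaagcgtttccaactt
The P4ha1 window holds ACGTG 1 time and GCGTG 2 times, the P4ha2 window holds each 2 times, and the Serpinh1 window holds ACGTG 1 time and GCGTG 0 times. Plod1 has 0 and 2, and Loxl4 has 0 and 1. Of 32851 promoter windows of the same length, 19.6% hold ACGTG and 32.4% hold GCGTG. A match is a description of the letters and not a site of binding. Lox, Loxl1, Loxl2, Loxl3 and Plod2 had no entry.

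Over all kept cells, Lox stood at 403.5 CPM in the injured and 97.3 CPM in the uninjured library, 4.15-fold higher (4.06 to 4.24). Plod2 stood at 204.2 against 84.7 CPM, 2.41-fold higher (2.35 to 2.47). Of the 9 members with at least 10 CPM in 1 library, these 2 passed a 2-fold difference upward and 0 passed it downward, where the log2 ratio is taken after adding 5 CPM to both sides. Of all 10198 genes at that level, 5.04% passed upward and 6.57% downward. Serpinh1 stood at 1114 against 657.3 CPM and Plod1, with the opposite direction, at 71.0 against 114.7 CPM. In a sum over a whole tissue, fewer cells of a type and less RNA per cell cannot be told apart. Mesenchymal cells made up 25.8% of injured and 27.3% of uninjured cells, but 45.8% and 31.1% of all UMIs.

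Mesenchymal cells (fibroblast-like and tenocyte-like clusters) held most UMIs of the lysyl oxidases. In the injured library they held 97.03% of Lox, 96.0% of Loxl1, 89.9% of Loxl3, 89.0% of Loxl2 and 71.4% of Loxl4 UMIs. In the uninjured library the shares were 91.2%, 92.2%, 91.9%, 85.8% and 78.6%. For the hydroxylases and the chaperone the mesenchymal share was lower in the uninjured than in the injured library. Mesenchymal cells held 94.6% of injured but 76.3% of uninjured Plod2 UMIs, and 89.5% against 49.1% of P4ha2 UMIs. For Serpinh1 the shares were 80.6% and 56.3%, for P4ha1 62.6% and 50%, and for Plod1 46.6% and 33.5%. Vascular endothelial cells held the largest share of uninjured Plod1, 45.5%, against 24.3% in the injured library. They held 31094972 of all 88562103 uninjured and 41193089 of all 238925558 injured UMIs, so their share of all UMIs differed as well.

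**Figure D1:**
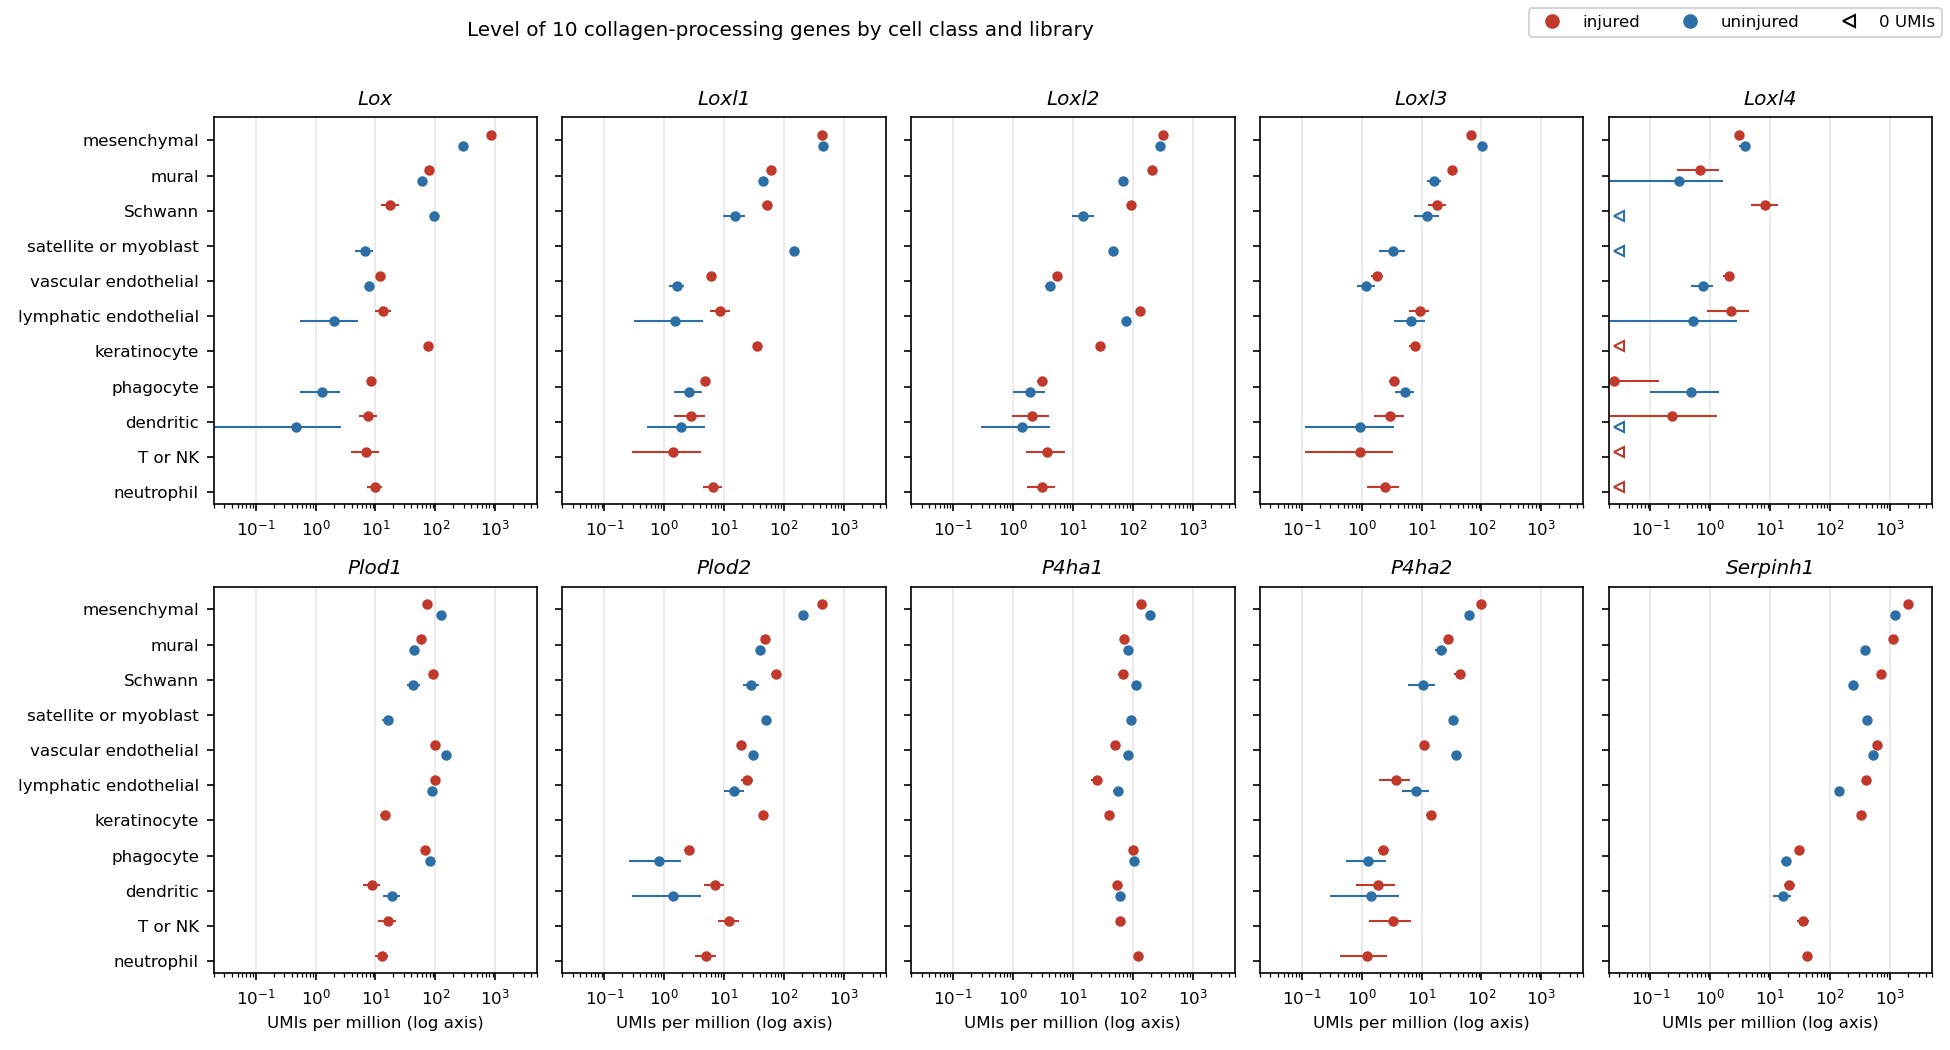
Level of each member in CPM (log axis) by cell class, for classes with at least 50 cells, in the injured (red) and uninjured (blue) library; bars are exact 95% counting intervals and open triangles at the left edge mark 0 UMIs. Lox, Loxl1, Loxl2 and Loxl3 stand highest in mesenchymal cells, Loxl4 is low throughout (3.01 and 3.74 CPM in mesenchymal and 8.27 CPM in injured Schwann cells), and P4ha1 lies between 25.1 and 192.0 CPM in every class shown.

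Lox (ENSMUSG00000024529) encodes the founding lysyl oxidase of collagen and elastin. In mesenchymal cells the level was 854.3 CPM (848.8 to 859.7) over 2360 injured cells, beside 285.3 CPM (279.0 to 291.7) over 1281 uninjured ones, 2.99-fold higher (2.93 to 3.07). The mean was 39.6 UMIs per injured and 6.13 UMIs per uninjured cell, with median depths of 44734.5 and 19706 UMIs per cell. When each cell was thinned to 5000 UMIs, so that depth was equal, 89.6% of injured cells (88.2 to 90.8%) and 46.6% of uninjured cells (43.7 to 49.5%) still held a Lox UMI. The 2 intervals do not overlap, but they count cells within 1 library each and do not cover differences between mice. With the full counts of these cells, so at unequal depth, the median Lox level per cell was 681.0 CPM (quartiles 406.8 and 994.3) injured and 99.2 CPM (0 and 301.5) uninjured. Phagocytes, which are not known as a source of Lox, held a Lox UMI in 4.17% and 1.33% of thinned cells.

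Of the other lysyl oxidases, Loxl1, Loxl2 and Loxl3 stayed within 2-fold in mesenchymal cells. Loxl1 (ENSMUSG00000032334, mm10 chromosome 9, 58287738 to 58313186), known for its role in elastic fibres, stood at 432.0 CPM injured and 451.5 CPM uninjured, a fold of 0.957 (0.938 to 0.976). Loxl2 (ENSMUSG00000034205, chromosome 14, 69609068 to 69695834), which cross-links collagen type IV in basement membranes, stood at 313.8 against 281.1 CPM, a fold of 1.12 (1.09 to 1.14). Loxl3 (ENSMUSG00000000693, chromosome 6, 83034173 to 83052562), known for a role in palate and spine development, stood at 67.5 against 101.9 CPM, a fold of 0.663 (0.634 to 0.692). Loxl4 (ENSMUSG00000025185, chromosome 19, 42593982 to 42612813) was read at 3.01 and 3.74 CPM from 330 and 103 UMIs, under the 10 CPM needed for a call. Counted over Lox and Loxl1 UMIs together, the share of Lox was 66.4% (66.2 to 66.7%) in injured and 38.7% (38.1 to 39.4%) in uninjured mesenchymal cells. Capture differs between genes in 3′ counting, so such a share is compared between cells and not read as a ratio of the 2 enzymes.

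The lysyl hydroxylases differed in opposite directions. Plod2 (ENSMUSG00000032374, chromosome 9, 92542223 to 92608428) encodes the hydroxylase of the collagen telopeptides, the ends where cross-links form. It stood at 421.7 CPM in injured and 207.8 CPM in uninjured mesenchymal cells, 2.03-fold higher (1.97 to 2.09), at the edge of the 2-fold limit. Plod1 (ENSMUSG00000019055, chromosome 4, 147909753 to 147936767), which hydroxylates lysine in the helix, stood at 72.2 against 123.5 CPM, a fold of 0.585 (0.562 to 0.609). The share of Plod2 among Plod1 and Plod2 UMIs was 85.4% (85.1 to 85.7%) in injured and 62.7% (61.7 to 63.7%) in uninjured cells. After thinning, 73.2% of injured and 48.7% of uninjured cells held a Plod2 UMI, and 29.5% against 41.3% a Plod1 UMI.

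The prolyl 4-hydroxylase subunits also differed in opposite directions, each within 2-fold. P4ha1 (ENSMUSG00000019916, chromosome 10, 59323296 to 59373304) stood at 138.9 CPM in injured and 192.0 CPM in uninjured mesenchymal cells, a fold of 0.724 (0.701 to 0.747). P4ha2 (ENSMUSG00000018906, chromosome 11, 54100095 to 54131665) stood at 99.6 against 61.0 CPM, a fold of 1.63 (1.55 to 1.72). The share of P4ha2 among UMIs of both was 41.8% (41.2 to 42.4%) and 24.1% (23.1 to 25.1%). Serpinh1 (ENSMUSG00000070436, chromosome 7, 99345376 to 99353239) stood at 1960 against 1189 CPM, a fold of 1.65 (1.63 to 1.67), and was found in 98.9% and 97.4% of thinned cells. Neither subunit nor Serpinh1 reached 2-fold.

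In sum over mesenchymal cells, 2 of the 9 members at 10 CPM or more were at least 2-fold higher (Lox and Plod2) and 0 were lower. Of 9457 genes at that level, 4.29% were higher and 6.90% lower. The median log2 ratio over the 10 members was 0.05, beside -0.05 over all genes tested. The median log2 ratio of 12836 genes with at least 50 UMIs was -0.12, the shift that a median-of-ratios scale would take out. Thinned mesenchymal cells held UMIs of a median of 6 members in the injured and 5 in the uninjured library, and 77.5% against 55.9% of them held 5 or more.

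**Figure D2:**
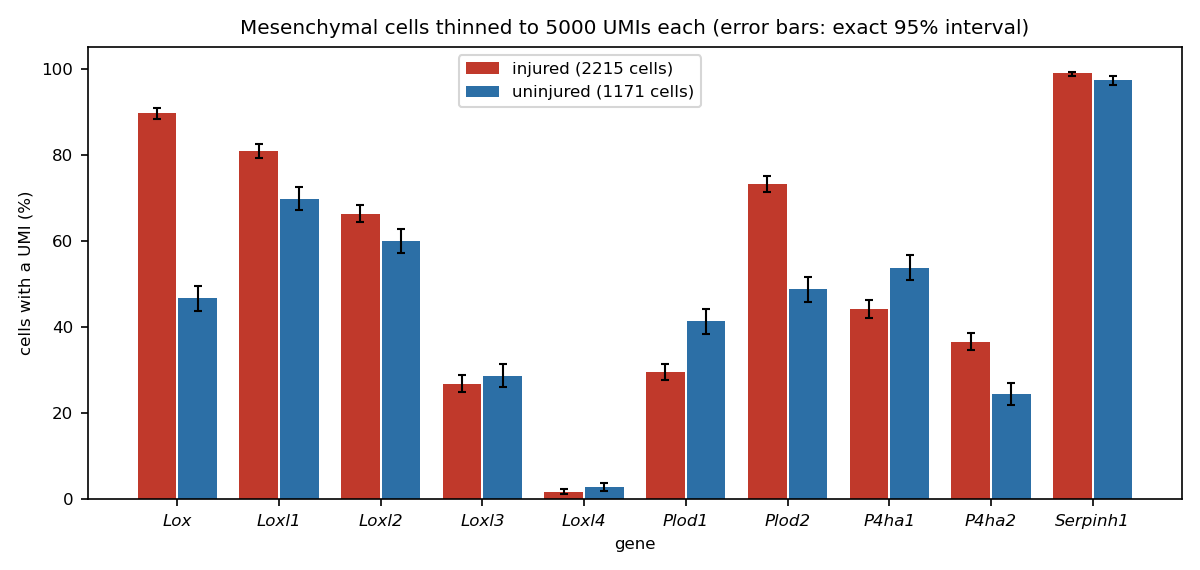
Share of mesenchymal cells (percent) with at least 1 UMI of each member after every cell was thinned to 5000 UMIs, for 2215 injured (red) and 1171 uninjured (blue) cells; error bars are exact 95% intervals. Lox shows the widest gap, 89.6% against 46.6%, and Plod1 and P4ha1 are found in fewer injured than uninjured cells.

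The enzymes act on collagen, so their UMIs were also set beside those of Col1a1, Col1a2 and Col3a1, the chains of the main fibrillar collagens. These 3 genes together stood at 52427 CPM in injured and 38138 CPM in uninjured mesenchymal cells, a fold of 1.38. Per 1000 collagen UMIs, Lox stood at 16.3 against 7.48 UMIs, 2.18-fold higher (2.13 to 2.23). Plod1 stood at 1.38 against 3.24, a fold of 0.425 (0.408 to 0.443), and Loxl3 at 1.29 against 2.67, a fold of 0.482 (0.462 to 0.504). P4ha1 stood at 2.65 against 5.03, a fold of 0.526. On this scale 1 member was at least 2-fold higher and 2 were lower, while 3.26% of 9455 genes were higher and 20.3% lower. Plod2 kept a fold of 1.48, P4ha2 of 1.19 and Serpinh1 of 1.198, and Loxl1 and Loxl2 stood at 0.696 and 0.812.

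**Figure D3:**
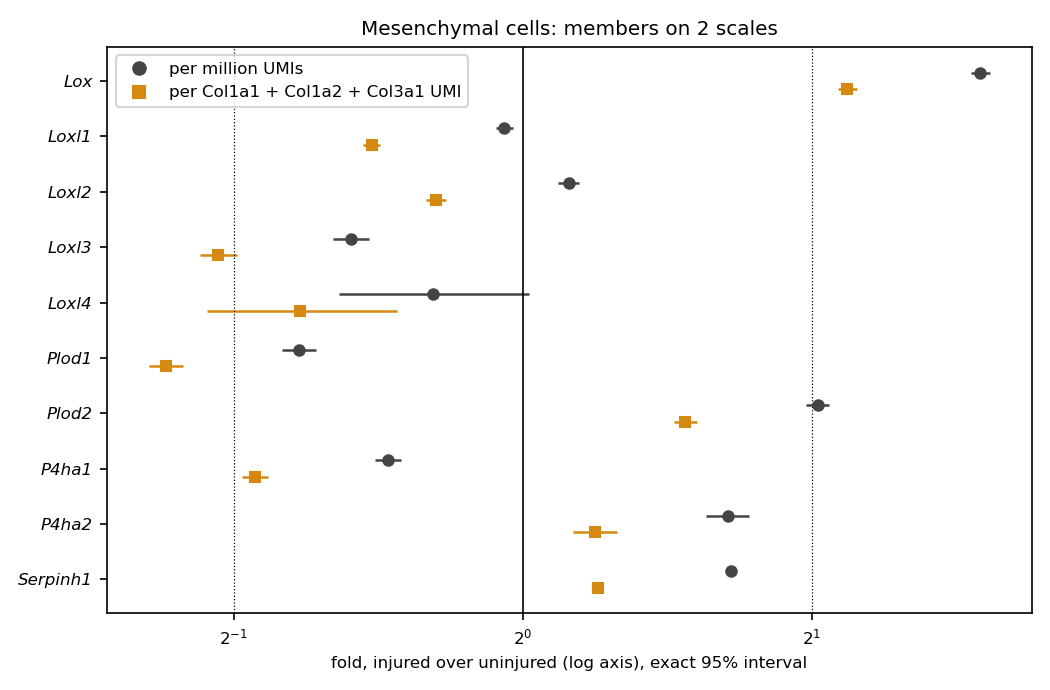
Fold of each member in mesenchymal cells, injured over uninjured (log axis), in CPM (circles) and per UMI of Col1a1, Col1a2 and Col3a1 (squares), with exact 95% intervals; dotted lines mark 2-fold in either direction. Lox lies beyond 2-fold on both scales, and Plod1 and Loxl3 pass the lower line per collagen UMI.

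Injured and uninjured mesenchymal cells lay almost wholly in different clusters, so the class values compare different mixtures of cells. Clusters led by Sfrp2 and Col14a1 (820 injured and 5 uninjured cells), by C1qtnf3 and Cthrc1 (677 and 8) and by Cxcl5 and Timp1 (742 and 8) held most of the injured cells, and Lox itself was among the leading genes of the last. A tenocyte-like cluster led by Mgp and Fmod (24 and 372), a fibroblast-like cluster led by Gsn and Clec3b (87 and 684) and one led by Gsn and Inmt (10 and 204) held most of the uninjured cells. The Gsn and Clec3b cluster alone had 50 or more cells in both libraries. Activated fibroblast markers summed to 9808 against 3202 CPM over the class, with 7 of 7 markers higher, and tenocyte markers to 1438 against 5041 CPM, with 0 of 7 higher. The part of this shift in the member values was not tested beyond the values within clusters.

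Lox stood at 979.3 CPM in the Cxcl5 and Timp1 cluster, 808.1 CPM in the C1qtnf3 and Cthrc1 cluster and 786.9 CPM in the Sfrp2 and Col14a1 cluster of the injured library. In the uninjured library it stood at 474.1 CPM in the tenocyte-like cluster, 180.9 CPM in the Gsn and Inmt cluster and 167.7 CPM in the Gsn and Clec3b cluster. The 87 injured cells of the Gsn and Clec3b cluster stood at 224.2 CPM, below the uninjured tenocyte-like cluster. The 3 clusters that held most injured cells were above all 3 uninjured clusters, and the intervals of the 2 lowest uninjured clusters overlap. A Lox UMI was found in 95.8% to 98.4% of cells in those injured clusters, in 90.9% of tenocyte-like cells and in 49.0% and 55.6% of the other uninjured cells. Plod2 was highest in the C1qtnf3 and Cthrc1 cluster, at 552.2 CPM, and lowest in the Gsn and Inmt cluster, at 94.5 CPM. Serpinh1 was also highest in the C1qtnf3 and Cthrc1 cluster, at 2342 CPM, and Loxl2 stood there at 385.9 CPM.

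Tenocyte-like cells had a pattern of their own among the members. P4ha2 stood at 10.5 CPM (8.47 to 12.9) there, from 91 UMIs in 372 uninjured cells, against 82.0 to 106.7 CPM in the other mesenchymal clusters. P4ha1 stood at 325.7 CPM (313.8 to 338.0), against 78.1 to 152.3 CPM elsewhere. P4ha2 made up 3.13% (2.53 to 3.83%) of the UMIs of both subunits in tenocyte-like cells and 39.2% to 51.8% in the other clusters. Loxl3 stood at 219.3 CPM (209.6 to 229.4), against 34.2 to 82.4 CPM elsewhere. Loxl1 was lowest there, at 206.9 CPM, and reached 586.3 and 614.9 CPM in the uninjured and injured Gsn and Clec3b cells. These clusters were separated on other genes of the same cells, so the values describe them and are no test. Without the tenocyte-like cluster the mesenchymal log2 ratio of Loxl3 was 0.44 in place of -0.56, that of P4ha1 0.08 in place of -0.45, that of P4ha2 0.24 in place of 0.67 and that of Plod2 0.95, under the 2-fold limit.

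**Figure D4:**
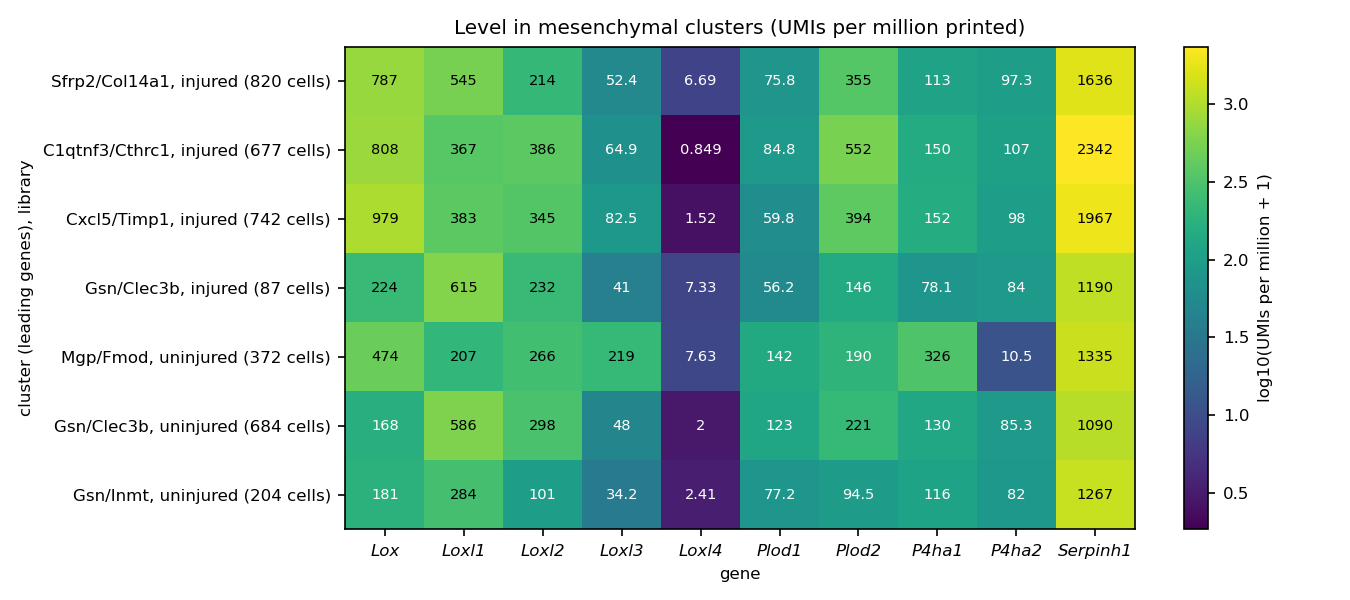
CPM of each member in each mesenchymal cluster with at least 50 cells of a library (printed in the cells; colour is log10 of the value plus 1), with injured clusters above uninjured ones. P4ha2 is lowest and P4ha1 and Loxl3 highest in the tenocyte-like Mgp/Fmod cluster, and Lox is at least 786.9 CPM in the 3 injured clusters led by Sfrp2, C1qtnf3 and Cxcl5.

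Within the shared Gsn and Clec3b cluster the difference in Lox was smaller and that in Plod2 had the other sign, whereas Plod1 and P4ha1 differed in the same direction as over the class and by more. Lox stood at 224.2 CPM in 87 injured and 167.7 CPM in 684 uninjured cells, a fold of 1.34 (1.21 to 1.48), and 35.3% of the injured UMIs came from 5 cells. Plod2 stood at 145.5 against 220.9 CPM, a fold of 0.659 (0.583 to 0.742), opposite to the class as a whole. Plod1 stood at 56.2 against 122.9 CPM, a fold of 0.457 (0.375 to 0.552), and P4ha1 at 78.1 against 130.4 CPM, a fold of 0.599 (0.507 to 0.704). P4ha2 stood at 84.0 against 85.3 CPM and Serpinh1 at 1190 against 1090 CPM. Of 9 members at 10 CPM or more, 0 were 2-fold higher and 1 was lower, beside 2.47% and 2.54% of all genes.

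Of 48 other genes of the pathway, 47 reached 10 CPM in mesenchymal cells, and 5 were at least 2-fold higher, 3 lower and 39 within 2-fold, with a median log2 ratio of 0.18. Of all 9457 genes at that level, 4.29% were higher and 6.9% lower. P4ha3, a further prolyl 4-hydroxylase subunit, stood at 112.9 against 22.7 CPM, 4.99-fold higher (4.599 to 5.41). Fkbp10, a prolyl isomerase needed for telopeptide lysine hydroxylation, stood at 209.9 against 101.3 CPM, and Efemp2, a fibulin that scaffolds lysyl oxidase, at 232.1 against 105.2 CPM. Tll1, a procollagen C-proteinase, stood at 19.9 against 6.39 CPM, and Col5a1, a chain of the collagen that starts fibrils, at 1821 against 899.7 CPM. Lower were Pcolce2, an enhancer of C-propeptide removal, at 43.2 against 271.1 CPM, Colgalt2, a collagen galactosyltransferase, at 7.13 against 41.5 CPM, and P3h2, a prolyl 3-hydroxylase, at 11.5 against 35.9 CPM. All 13 genes listed under folding and export, a list that does not hold Fkbp10 or Serpinh1, stayed within 2-fold.

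Vascular endothelial cells (1294 injured and 1759 uninjured) read Plod1 above the level in mesenchymal cells, and P4ha1 and Serpinh1 below it. Plod1 stood at 99.97 against 148.5 CPM, P4ha1 at 49.6 against 81.9 CPM and Serpinh1 at 597.9 against 515.5 CPM. With a mitochondrial limit of 20%, the log2 ratio of Plod1 was -0.19 in place of -0.55 and that of P4ha1 -0.38 in place of -0.67. That of Serpinh1 was then 0.54 in place of 0.21. P4ha2 stood at 10.9 CPM (449 UMIs) in injured and 36.9 CPM (1146 UMIs) in uninjured cells, 3.38-fold lower (3.03 to 3.78). Of 6 members at 10 CPM or more, this 1 was 2-fold lower and 0 were higher, beside 4.46% and 4.77% of 9203 genes.

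The lower P4ha2 level was found in each of the 5 vascular clusters. It stood at 5.72 against 30.6 CPM in the Selp and Mctp1 cluster, 8.51 against 15.3 CPM in the Plvap and Ctla2a cluster, and 11.6 against 22.7 CPM in the cluster with cell cycle genes. It stood at 44.8 against 79.2 CPM in the Stmn2 and Cldn5 cluster and 21.1 against 33.9 CPM in the Timp4 and Cd36 cluster. In the Selp and Mctp1 cluster the difference passed 2-fold on the log2 scale used, and in the other 4 it did not. With Lox, at 6.69 against 22.0 CPM, 2 of 6 members were lower and 0 higher in that cluster, beside 3.38% and 3.28% of its genes. In the Plvap, cell cycle and Timp4 clusters 0 of 5 members passed in either direction, where 3.57%, 4.99% and 1.08% of genes were higher and 3.92%, 4.95% and 0.576% lower. After thinning, 4.90% of injured and 17.2% of uninjured vascular cells held a P4ha2 UMI. The Timp4 and Cd36 cluster held 133 of the injured and 1190 of the uninjured cells, so the mixture of clusters differed as well. Over the 5 clusters the Plod1 fold ran from 0.557 in the Stmn2 and Cldn5 cluster to 1.17 in the Selp and Mctp1 cluster. The Serpinh1 fold ran from 0.895 in the cell cycle cluster to 1.95 in the Selp and Mctp1 cluster. Erythroid markers summed to 342.0 against 2403 CPM in vascular cells, and their part in the result was not tested.

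Lox in vascular cells was low, at 11.9 against 7.94 CPM, apart from the Stmn2 and Cldn5 cluster, whose leading genes include Sema3g and Sox17. There its level was 115.5 CPM (99.9 to 132.9) over 65 injured cells, beside 44.5 CPM (37.8 to 51.9) over 189 uninjured ones, found in 49.2% and 27.0% of them. In the injured cells 44.4% of the Lox UMIs came from 5 cells. Lox was the 1 of 6 members past 2-fold upward in that cluster and 0 passed downward, beside 5.27% and 3.15% of its genes. In the 4 other vascular clusters Lox stood at 22.0 CPM or less. The direction over the whole class turned under some settings, to -0.43 on the log2 scale at the lowest.

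Mural cells (449 injured and 217 uninjured, pericyte-like and smooth-muscle-like) differed in Loxl2 and Serpinh1. Loxl2 stood at 211.6 against 69.4 CPM, 3.05-fold higher (2.66 to 3.50), and Serpinh1 at 1105 against 375.0 CPM, 2.95-fold higher (2.78 to 3.13). Of 9 members at 10 CPM or more, these 2 were higher and 0 lower, beside 6.89% and 6.39% of 9668 genes. Lox stood at 79.8 against 59.3 CPM, a fold of 1.34 (1.15 to 1.58). In the Rgs5-led pericyte-like cluster (395 and 75 cells), Loxl2 stood at 223.0 against 102.5 CPM and Serpinh1 at 1172 against 386.4 CPM, so these 2 of 9 stayed above 2-fold there and 0 were lower, beside 7.24% and 6.99% of its genes. Serpinh1 was under 2-fold, at a log2 ratio of 0.90, when the unnamed cluster with pericyte and endothelial genes (140 and 243 cells) was counted as mural, and at 0.87 with coarser clustering.

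Mural collagen also stood higher, and per collagen UMI the 2 members differed by less than 2-fold. Col1a1, Col1a2 and Col3a1 together stood at 7920 against 3394 CPM, and the fold per collagen UMI was 1.31 (1.14 to 1.502) for Loxl2 and 1.26 (1.19 to 1.34) for Serpinh1. On this scale P4ha1 stood at 0.3795 (0.3301 to 0.4373) and Lox at 0.576 (0.493 to 0.676). The 3 collagen genes were themselves 2.33-fold higher in CPM, which lowers every fold on this scale. In CPM P4ha1 was within 2-fold, at 0.886 (0.770 to 1.02). The share of all genes on this scale was not taken for mural cells, so no member is called lower on it. Of 43 other pathway genes at 10 CPM or more, 19 were at least 2-fold higher and 3 lower (Tmem38b, Pcolce2 and Tgm2). Of all 9668 genes at that level in mural cells, 6.89% were higher and 6.39% lower. Among the higher were Creb3l1, a transcription factor of collagen secretion, at 59.1 against 14.2 CPM, and Adamts2, the procollagen N-proteinase, at 269.1 against 78.6 CPM. Smooth muscle markers summed to 3369 against 8069 CPM and pericyte markers to 7754 against 6815 CPM in these cells, and the part of that shift in the result was not tested.

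**Figure D5:**
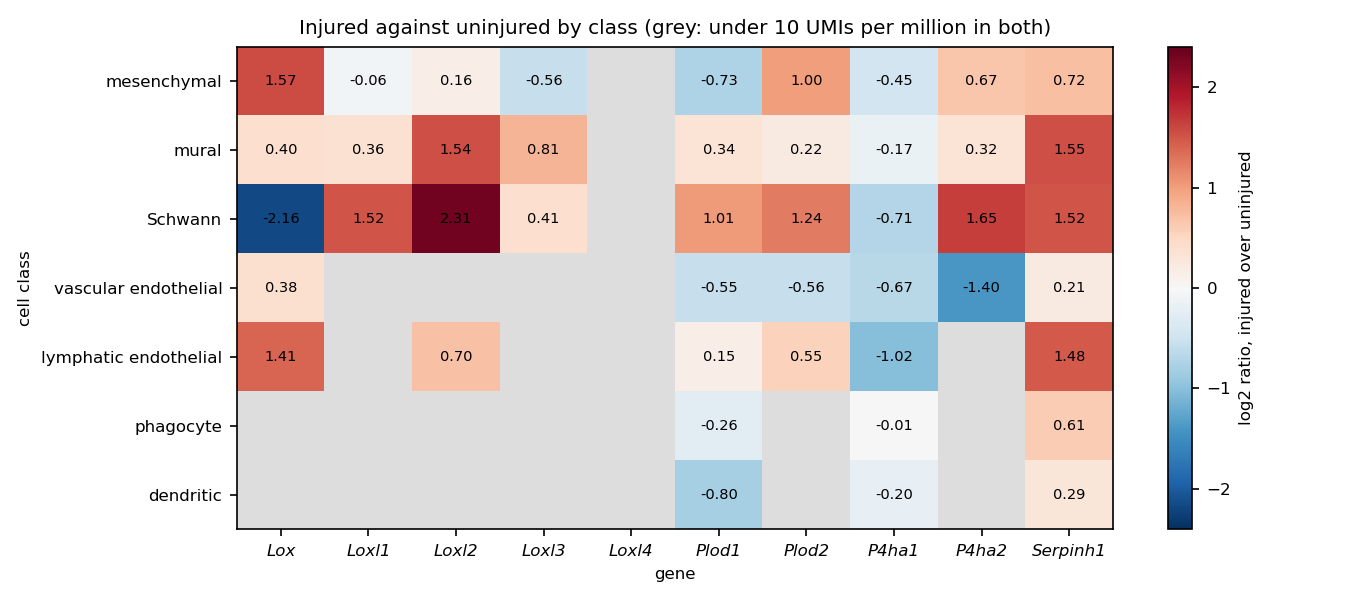
Log2 ratio of injured over uninjured CPM (5 CPM added to both) for each member in the 7 classes with at least 50 cells in both libraries; grey cells had under 10 CPM in both. Lox is higher in mesenchymal cells and lower in Schwann cells, P4ha2 is lower in vascular endothelium, and Loxl2 and Serpinh1 are higher in mural and Schwann cells.

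Lymphatic endothelial cells, 84 in each library, read Loxl2 above vascular endothelium. Loxl2 stood at 129.9 CPM in injured and 77.8 CPM in uninjured lymphatic cells, and at 5.39 and 4.15 CPM in vascular cells. After thinning, 50% (38.5 to 61.5%) and 30.7% (20.5 to 42.4%) of lymphatic cells held a Loxl2 UMI, against 1.87% and 1.51% of vascular cells. The intervals of the 2 lymphatic shares overlap. Serpinh1 stood at 395.0 against 138.3 CPM, 2.86-fold higher (2.50 to 3.27), and P4ha1 at 25.1 against 55.9 CPM, 2.23-fold lower (1.66 to 3.01). Lox stood at 13.6 against 2.03 CPM, from 44 and 4 UMIs, and 1 injured cell held 30 of the 44. The P4ha1 log2 ratio of -1.02 passed 2-fold in 10 of 13 alternatives and was -0.93 at its smallest. Of the P4ha1 UMIs, 30.9% of the injured and 46.4% of the uninjured came from 5 cells. Markers of other cells were higher in the injured lymphatic cells: activated fibroblast markers summed to 616.6 against 130.7 CPM and fibroblast markers to 213.9 against 43.2 CPM (7 of 7 higher in each), pericyte markers to 122.1 against 29.5 CPM (7 of 7) and erythroid markers to 1495 against 58.5 CPM (4 of 5). Lymphatic markers summed to 5729 against 14661 CPM, with 0 of 7 at 0 in either library, and the part of these in the result was not tested. Of 6 members at 10 CPM or more, 2 were higher (Lox and Serpinh1) and 1 lower, beside 10.6% and 10.3% of 9675 genes.

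Schwann cells (100 injured and 170 uninjured) had 7 members past 2-fold, and their cell type markers differed too. Loxl2 stood at 94.1 against 14.98 CPM, Serpinh1 at 699.8 against 241.0 CPM, P4ha2 at 43.4 against 10.4 CPM, Loxl1 at 52.2 against 14.98 CPM, Plod2 at 72.9 against 28.0 CPM and Plod1 at 92.0 against 43.0 CPM. Lox was lower, at 17.6 CPM from 34 UMIs against 95.8 CPM from 147 UMIs, and 46.9% of the uninjured UMIs came from 5 cells. The share from 5 cells was 61.4% injured and 60.9% uninjured for Loxl1, and 36.3% and 65.2% for Loxl2. It was 23.6% and 17.3% for Serpinh1. Of 9 members at 10 CPM or more, 6 were higher and 1 lower, beside 11.4% and 9.24% of 9997 genes. Schwann markers summed to 7306 against 37320 CPM in these cells and activated fibroblast markers to 2646 against 400.0 CPM. Fibroblast markers went the other way, at 537.5 against 1348 CPM, with 3 of 7 higher in the injured cells. Melanocyte markers summed to 1658 against 10.4 CPM, with 0 of the 4 at 0 in the injured cells. The part of these in the result was not tested. With each library clustered alone the Lox log2 ratio was -0.11 in place of -2.16. Plod1, at a log2 ratio of 1.02, passed 2-fold in 6 of 14 alternatives and was 0.71 at its lowest, and Plod2, at 1.24, passed in 11 of 14 and was 0.67 at its lowest.

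Of the unnamed clusters 2 had at least 50 cells in both libraries. A cluster led by Apod and Gpc3 held 79 cells of each, and Lox stood there at 70.9 against 25.3 CPM (103 and 22 UMIs), Loxl1 at 132.9 against 23.0 CPM (193 and 20 UMIs) and Loxl3 at 22.0 against 4.601 CPM (32 and 4 UMIs). These 3 of 9 members were 2-fold higher and 0 lower, beside 11.3% and 5.53% of its genes. In the cluster with both pericyte and endothelial genes, led by Rgs5 and Fabp4, P4ha1 stood at 42.0 against 96.4 CPM, 2.297-fold lower (2.01 to 2.63), and P4ha2 at 14.96 against 34.1 CPM, 2.28-fold lower (1.82 to 2.86) but within the limit on the log2 scale used. Loxl1 stood at 14.6 against 3.51 CPM. Of 8 members there, 1 was higher (Loxl1) and 1 lower (P4ha1), beside 3.76% and 4.86% of its genes.

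Immune cells held P4ha1 as well, at 53.6 CPM in injured and 62.4 CPM in uninjured dendritic cells and 62.1 CPM in injured T or NK cells. In phagocytes (2753 injured and 396 uninjured) P4ha1 stood at 102.7 against 103.9 CPM, a fold of 0.989 (0.910 to 1.08), and Plod1 at 68.0 against 82.6 CPM. Phagocytes held 17.0% of injured P4ha1 and 16.2% of injured Plod1 UMIs. Over all injured cells the levels were 101.7 and 71.0 CPM, so these shares are near the share of phagocytes in all injured UMIs. P4ha1 stood at 122.0 CPM in 994 injured neutrophils, which held 6 P4ha2 UMIs against 606 of P4ha1. Of 3 members at 10 CPM or more in phagocytes, 0 were higher and 0 lower, beside 3.17% and 4.37% of 8645 genes. In dendritic cells the counts were also 0 and 0 of 3, beside 7.28% and 5.44% of 8433 genes.

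Lox in phagocytes, at 8.44 and 1.29 CPM, was set against the level that would come with their collagen UMIs at the mesenchymal ratio. It stood at 0.974 and 0.649 times that level, at or below it. The comparison assumes that background keeps the mesenchymal ratio, which was not tested, so background and expression cannot be told apart. The same ratio was 1.08 for Lox in the 306 injured keratinocytes, at 75.9 CPM, and 1.00 for Loxl1. There 5 cells held 52.4% of the Lox UMIs. Loxl1 was above that level in 274 uninjured satellite cells or myoblasts, at 147.6 CPM and 3.81 times the carried level, where Lox stood at 6.64 CPM and 0.271 times.

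Genes with the most similar pattern were sought over the 18 class and library profiles with at least 50 cells, among 7979 genes at 50 CPM or more in a profile, by Pearson's r of log2 levels. The profiles share libraries and depth, so r is a description. For Lox the nearest were Cdh11 (r of 0.97), Mfap5 (0.95), Ror2 (0.95), Mmp23 (0.94) and Col1a2 (0.93). For Plod2 they were P3h1 (0.96), Gpx7 (0.95), Tmem263 (0.94), Bicc1 (0.94) and P3h4 (0.94), and for Serpinh1 Sparc (0.97), Ppic (0.96), Fkbp9 (0.96), Bmp1 (0.95) and Cttn (0.95). For P4ha1 the highest values were lower: Ypel3 (0.77), Klhl24 (0.75), Ccpg1 (0.73), Smim14 (0.71) and Igfbp6 (0.69). Among the members themselves r was highest for P4ha2 with Plod2, at 0.94, and P4ha1 with Serpinh1 reached 0.11.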

How the data were processed

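Per the file headers, the deposited files are raw UMI counts per gene and cell barcode. The authors made these counts with Cell Ranger 5.0.1 on mm10, per the submitters' processing notes. Neither the labels nor the headers name the settings of cell calling or the annotation release. Cells under 500 genes or over 10% mitochondrial UMIs were left out, and those with a Scrublet score above 0.2 (215 injured, 60 uninjured) were removed. Counts were scaled to 10000 per cell, and 2000 variable genes, 30 principal components and 15 neighbours gave Leiden clusters at resolution 0.8 (scanpy 1.11.5, igraph 0.11.9, Python 3.11.15). The 10 members and 48 pathway genes were left out of clustering. Clusters were named by 24 marker lists, and stayed unnamed where no list scored 0.5 or a rival list reached 0.5 of the best score, limits set after the clusters were seen. Unnamed cells were 2.43% of injured and 7.23% of uninjured cells.

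Levels are sums of UMIs over the cells of a class in 1 library, per 1000000 UMIs. Intervals are exact Poisson, Clopper-Pearson or conditional intervals (scipy 1.17.1) for counting error only, and 0 counts allow up to 3. The code was tested on simulated data. The members and lists were chosen with earlier results of these data known. Named were all members, pathway genes past 2-fold in mesenchymal cells, and the 5 genes most alike for 4 members. Mural examples were chosen after their values were seen. Alternatives covered scaling, filters, depth, doublets, clustering and cells split by sex-linked UMIs. Coordinates are from GENCODE M21 (GRCm38, mm10). Gene length was not used.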

Additional observations from a re-analysis of the deposited data

Results flagged for a closer look

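The log2 ratio of Lox, injured over uninjured, had opposite signs between cell classes, at 1.57 in mesenchymal and 1.41 in lymphatic endothelial cells but -2.16 in Schwann cells. That of P4ha2 was -1.40 in vascular endothelial cells and 1.65 in Schwann cells. With 1 library per group the differences between classes were not tested. The lymphatic value rests on 44 and 4 UMIs, and 1 injured cell held 30 of the 44. The Schwann value rests on 34 and 147 UMIs, and 46.9% of the uninjured ones came from 5 cells. With each library clustered alone, the Schwann difference in Lox nearly vanished, as given above.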

How the results depend on the processing

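Of the counts of members past 2-fold over all cells and in mesenchymal, vascular and mural cells, 130 values under alternative settings stayed at the main count or within 1.5 times it and 8 moved. With the mean of each cell's own CPM, 1 member in place of 2 was higher over all cells, and 1 in place of 2 was lower per collagen UMI. In mesenchymal cells 1 member (Lox) in place of 2 was higher among cells of 5000 or more UMIs, in the subset that held Xist but lacked Y-linked UMIs (Plod2 at a log2 ratio of 0.90), and without the tenocyte-like cluster, a setting chosen after seeing the data, which also left 1 lower per collagen UMI. In that same subset 0 were higher per collagen UMI. With each library clustered alone, 5 members in place of 2 were higher in mural cells. In lymphatic cells 1 in place of 2 was higher with the mean of each cell's own CPM and in the Y-linked subset, and 0 in place of 1 was lower with median-of-ratios scaling, 5000 or more UMIs, or each library clustered alone. In Schwann cells 3 in place of 6 were higher with a mitochondrial limit of 20%, and 0 in place of 1 was lower with each library clustered alone. In phagocytes up to 2 in place of 0 were higher and in dendritic cells up to 1 in place of 0 was higher or lower. The cause was not tested. Without thinning, the share of mesenchymal cells with a UMI was higher on the injured side for every member. Thinned to 5000 UMIs, it was lower for Loxl3 (-1.87 percentage points), Loxl4 (-1.11), Plod1 (-11.7) and P4ha1 (-9.60).

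Lox in mesenchymal cells lay between 1.48 and 2.08 on the log2 scale over 16 alternatives and P4ha2 in vascular cells between -1.67 and -1.31 over 14. Loxl2 in mural cells lay between 1.14 and 2.67 over 15. Lox in vascular cells lay between -0.43 and 0.62, and 10 of 14 kept its sign. No paired analysis was possible because there is 1 library per group. Low counts limit Loxl4 and the lymphatic and Schwann values of Lox. Lymphatic cells were too few for a value in the Xist subset.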
